A study of Mus musculus with 12 samples.

Results

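The transcripts of the 5 genes that encode the NF-κB subunits, Nfkb1, Nfkb2, Rel, Rela and Relb, were followed in mouse peritoneal exudate cells (PECs) during stimulation with LPS, a cell wall component of Gram-negative bacteria. The genes were taken by their symbols from a list of 12850 genes and all 5 passed the filter on low values. PECs are mainly macrophages that an irritant draws into the abdominal cavity, here 2 ml of 4% thioglycollate medium given 3.5 days before collection. The PECs came from C57BL/6 mice that were either WT or Zc3h12a S513A/S513A (S513A), and were kept for 0, 4 or 8 hr with LPS at 100 ng/ml, with 2 libraries in each of the 6 groups. Zc3h12a encodes Regnase-1, an RNase that degrades inflammatory mRNAs. The S513A mice carry a knock-in made with CRISPR/Cas9 that replaces a phosphorylated serine of Regnase-1 by alanine. It is present in every cell of the animal, so the mutation was not limited to macrophages, and the age of the mice is not given in the sources used here. Nothing in the labels says whether the libraries of a group came from separate mice, so the p-values measure the spread between these libraries, which may be technical.

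NF-κB is a family of dimeric transcription factors that share a Rel homology domain for DNA binding and dimerization. In resting macrophages the dimers are held in the cytoplasm by IκB proteins, and signals from Toll-like receptor 4, the receptor for LPS, activate kinases that mark IκB for degradation, so that the dimers enter the nucleus. Rela, Rel and Relb encode subunits with a transactivation domain, whereas Nfkb1 and Nfkb2 encode the precursors p105 and p100, which retain dimers as IκB proteins do and are processed to the DNA-binding subunits p50 and p52.

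Nfkb1 lies on chr3:135584655-135691547 (minus strand), Nfkb2 on chr19:46304320-46312385 (plus), Rel on chr11:23736847-23770970 (minus), Rela on chr19:5637483-5648130 (plus) and Relb on chr7:19606217-19629438 (minus) of GRCm38, all as protein-coding genes in the GENCODE annotation. RefSeq promoter windows, from 250 bases before to 50 bases after a start site, were at hand for Nfkb2 (3 start sites), Rel (1) and Rela (1), and none was used for Nfkb1 and Relb. They were searched on both strands for the consensus to which NF-κB dimers bind and for a shorter form, GGNNTTTCC, whose matches here all lay inside a match to the consensus. The consensus was found in all 3 windows of Nfkb2 and in the window of Rel, and in 8.46% of the 32841 windows of all genes. For the 12432 windows of listed genes the share was 10.37%. The Nfkb2 windows of the start sites at 46305695 and 46305930 overlap. The only consensus match in the latter is also counted in the former, so these windows are not separate finds. The shorter form was found in the same 4 windows of these genes, in 5.83% of all windows and in 6.30% of those of listed genes. Neither occurred in the window of Rela. The matches nearest to the start sites are shown because the genes that carry them are themselves NF-κB subunit genes, 5′ to 3′ along the gene and with the consensus in capitals.
Nfkb2, chr19:46304688-46304717, plus strand: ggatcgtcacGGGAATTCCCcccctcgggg
Nfkb2, chr19:46304716-46304745, plus strand: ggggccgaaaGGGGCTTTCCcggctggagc
Nfkb2, chr19:46305695-46305724, plus strand: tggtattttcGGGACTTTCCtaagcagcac
Rel, chr11:23771042-23771071, minus strand: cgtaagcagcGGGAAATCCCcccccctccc
The matches in the first and second stretches of Nfkb2 began at -39 and -11 from the start site at 46304737, and lie inside the GENCODE gene, which begins further upstream. The match in the last stretch of Nfkb2 began 10 bases after the start site at 46305695. The match of Rel began at -92 from its start site and lies outside the gene. A match describes the letters in a window and does not show that a factor binds there.

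Each library had between 9525979 and 12439960 reads on listed genes, and the 5 genes had between 184 and 7876 reads in a library. The deposited values are log2 CPM, where CPM are reads of a gene per 1e+06 reads of its library, after 0.5 read was added. The library sizes that these values imply were 0.877 to 1.15 times the reads on listed genes. They were 1.06 to 1.15 times these reads at 0 hr, 0.877 to 0.973 times at 4 hr and 0.9445 to 1.034 times at 8 hr. The size of a change over time thus depends on this scaling. Of 8 macrophage markers 8 were listed, with a summed level of 16754 to 27848 CPM. Of 9 neutrophil markers 3 were listed, without Ly6g, Cxcr2 and S100a9, and their sum was 660 to 745 CPM at 0 hr, 445 to 689 CPM at 4 hr and 362 to 575 CPM at 8 hr. Of these genes, Mmp8 had a log2 fold change of -0.79 at 8 hr (limma, adjusted p = 0.000524), from 625 to 725 CPM to 329 to 491 CPM, and held most of the sum. That of S100a8 was 0.87 (limma, adjusted p = 0.0456), from 20.2 to 54.1 CPM to 31.8 to 99.0 CPM with overlapping libraries, and Camp, near the floor at 0 hr with 0.035 to 0.346 CPM, stood at 1.77 to 3.48 CPM. Of 4 eosinophil markers 2 were listed, without Prg2 and Epx, with a sum of 15.3 to 18.5 CPM at 0 hr and 3.62 to 4.58 CPM at 8 hr. The part of these other cells in the changes below was not tested. In such bulk samples, fewer cells of a type, less RNA per cell and RNA of a marker from another cell type cannot be told apart. The libraries of a group differed most in WT at 4 hr and in S513A at 4 and 8 hr, along a pattern that held 67.6% of the variance within groups over 8353 genes. It held 84.7% of that variance for Nfkb2, 76.2% for Rela and 69.9% for Nfkb1, but 7.60% for Rel and 2.80% for Relb.

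LPS raised the transcripts of all 5 subunit genes. At 4 hr the rise, averaged over the genotypes, was 8.81-fold for Nfkb2, 6.84-fold for Nfkb1, 4.67-fold for Rel, 2.93-fold for Relb and 2.51-fold for Rela. At 8 hr the genes were still 2.02- to 5.12-fold above the level at 0 hr. Thus 5 of 5 were called higher at 4 hr and 5 of 5 at 8 hr (limma, Benjamini-Hochberg adjusted p under 0.05). Of all 11885 genes tested, 55.8% were called at 4 hr and 46.1% at 8 hr, and 29.1% and 24.5% were called higher. The median log2 fold change of the 5 genes was 2.22 at 4 hr and 1.22 at 8 hr, against 0.02 and -0.0007 over all genes tested.

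The precursor genes rose the most. Nfkb2, which encodes p100, the precursor and inhibitor of the alternative pathway, stood at 6.28 and 6.00 log2 CPM in the WT libraries and 6.09 and 6.07 in the S513A libraries at 0 hr. At 4 hr it stood at 9.17 and 9.50 in WT and 9.30 and 9.03 in S513A, and at 8 hr at 8.27 and 8.29 in WT and 8.79 and 8.51 in S513A. Every library at 4 or 8 hr was above every library at 0 hr, and every library at 8 hr was below every library at 4 hr. Its log2 fold change was 3.14 at 4 hr (95% confidence interval 2.90 to 3.38, adjusted p = 2.11e-09) and 2.36 at 8 hr (2.12 to 2.60, adjusted p = 2.60e-08).

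Nfkb1, which encodes p105 and, after processing, the p50 partner of RelA, stood at 6.48 and 6.41 log2 CPM in WT and 6.30 and 6.53 in S513A at 0 hr. The 4 hr libraries stood at 9.08 and 9.43 in WT and 9.27 and 9.03 in S513A. At 8 hr the values were 7.80 and 7.91 in WT and 8.28 and 8.10 in S513A. The time points did not overlap. The log2 fold change was 2.77 at 4 hr (2.55 to 3.00, adjusted p = 3.39e-09) and 1.59 at 8 hr (1.37 to 1.82, adjusted p = 3.23e-07).

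Rel, which encodes c-Rel, a transactivating subunit known for its role in lymphocytes and in the induction of Il12b in macrophages, had the fewest reads of the 5 genes at each time. At 0 hr it stood at 3.68 and 4.14 log2 CPM in WT and 4.09 and 4.13 in S513A, so that a WT library was lower than the other three. At 4 hr it stood at 6.07 and 6.47 in WT and 6.25 and 6.14 in S513A, and at 8 hr at 4.86 and 4.99 in WT and 5.07 and 5.17 in S513A. The time points did not overlap, with the 8 hr libraries between the others. The log2 fold change was 2.22 at 4 hr (1.96 to 2.49, adjusted p = 5.98e-08) and 1.01 at 8 hr (0.75 to 1.28, adjusted p = 4.11e-05).

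Rela, which encodes RelA, the main transactivating subunit of the canonical pathway, changed the least at 4 hr. It stood at 6.18 and 6.01 log2 CPM in WT and 6.02 and 6.18 in S513A at 0 hr. At 4 hr the values were 7.28 and 7.60 in WT and 7.49 and 7.34 in S513A, and at 8 hr 6.98 and 7.07 in WT and 7.58 and 7.32 in S513A. The stimulated libraries were all above the resting ones, whereas those at 4 and 8 hr overlapped. The log2 fold change was 1.33 at 4 hr (1.11 to 1.55, adjusted p = 7.64e-07) and 1.14 at 8 hr (0.92 to 1.36, adjusted p = 3.37e-06).

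Relb, which encodes RelB, the partner of p52 in the alternative pathway, stood at 5.16 and 4.96 log2 CPM in WT and 5.06 and 5.37 in S513A at 0 hr. It stood at 6.69 and 6.67 in WT and 6.82 and 6.59 in S513A at 4 hr, and at 6.27 and 6.33 in WT and 6.38 and 6.45 in S513A at 8 hr. Here too the 8 hr libraries were all below the 4 hr libraries, although by less than for the precursor genes. The log2 fold change was 1.55 at 4 hr (1.35 to 1.76, adjusted p = 1.35e-07) and 1.22 at 8 hr (1.01 to 1.42, adjusted p = 1.20e-06).

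**Figure D1:**
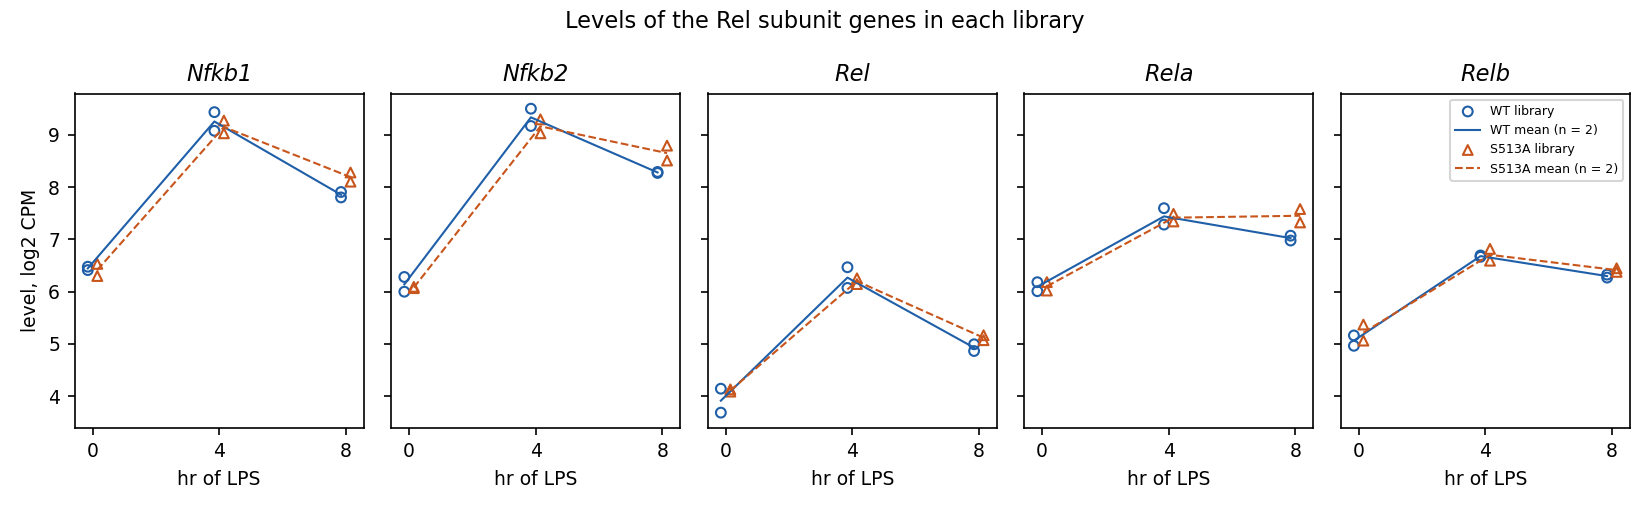
Level of each Rel subunit gene in log2 CPM (vertical axis) against hr of LPS (horizontal axis), with WT libraries as circles, S513A libraries as triangles and lines through the means of 2 libraries. Nfkb2 rises from about 6.11 to 9.25 on average at 4 hr, and the mean of Rela goes from 7.44 at 4 hr to 7.02 at 8 hr in WT and from 7.42 to 7.45 in S513A.

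The rise was found in each genotype taken alone. At 4 hr 5 of 5 genes were called higher in WT and 5 of 5 in S513A, where 22.6% and 23.1% of all genes were. At 8 hr it was again 5 of 5 in both, against 19.4% and 20.9% of all genes. The log2 fold changes at 4 hr were 2.81 in WT and 2.74 in S513A for Nfkb1, and 3.20 and 3.08 for Nfkb2. They were 2.36 and 2.09 for Rel, 1.35 and 1.31 for Rela, and 1.62 and 1.49 for Relb. These calls held under every alternative that was run.

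**Figure D2:**
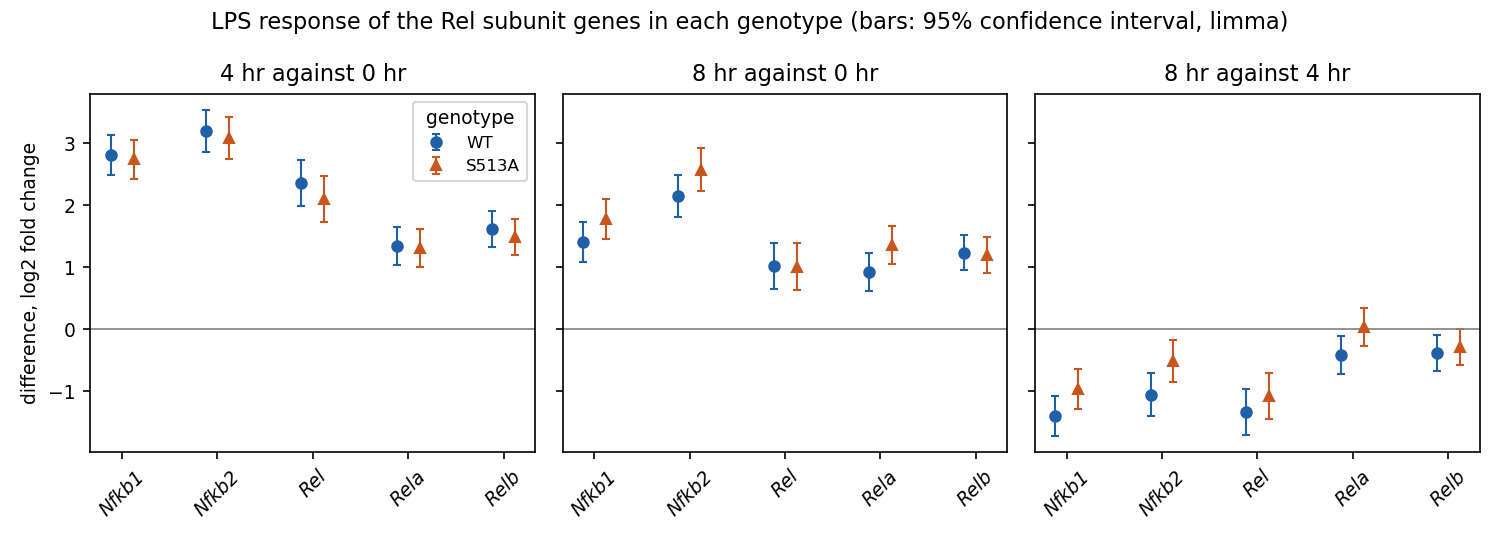
Log2 fold change of the Rel subunit genes (vertical axis) at 4 hr against 0 hr, 8 hr against 0 hr and 8 hr against 4 hr, for WT (circles) and S513A (triangles), with 95% confidence intervals from limma. Every interval of the first and second panels lies above 0, and in the panel of 8 hr against 4 hr every interval lies below 0 before adjustment except that of Rela in S513A, while after adjustment Nfkb1, Nfkb2 and Rel pass the threshold.

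From 4 to 8 hr the genes parted. Rel and Nfkb1 fell the furthest, to 0.432 and 0.441 times their 4 hr level, and Nfkb2 fell to 0.581 times. Relb fell to 0.792 times, and Rela stood at 0.877 times its 4 hr level without passing the threshold. Averaged over the genotypes, 4 of 5 genes were called lower, against 12.8% of all genes called lower and 25.6% called in either direction. The log2 fold change was -1.21 for Rel (adjusted p = 6.01e-05), -1.18 for Nfkb1 (adjusted p = 2.91e-05) and -0.78 for Nfkb2 (adjusted p = 0.000509). It was -0.34 for Relb (adjusted p = 0.0211) and -0.19 for Rela (95% confidence interval -0.41 to 0.03, adjusted p = 0.191). The call of Relb was lost under quantile normalization (adjusted p = 0.0704), under scaling to the sum of the listed genes (adjusted p = 0.0982) and without either WT library at 8 hr, S513A replicate 1 at 4 hr or S513A replicate 1 at 8 hr (adjusted p from 0.0555 to 0.0770).

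Within WT, Nfkb1, Nfkb2 and Rel were called lower at 8 than at 4 hr, 3 of 5 genes against 7.49% of all genes. Within S513A the same genes were called, 3 of 5 against 8.99% of all genes. The log2 fold changes of the called genes were -1.40 and -0.96 for Nfkb1 in WT and S513A, -1.05 and -0.51 for Nfkb2, and -1.34 and -1.08 for Rel. The fall of Nfkb2 in S513A had an adjusted p of 0.0436 and was lost in 10 of the 12 fits that left out a library and under several other settings, with adjusted p up to 0.253. Relb had -0.38 in WT (adjusted p = 0.0773) and -0.29 in S513A (adjusted p = 0.133). Rela had -0.42 in WT (adjusted p = 0.0730), which ranged from -0.572 to -0.259 with a library left out and passed the threshold without WT replicate 1 at 4 hr (-0.57, adjusted p = 0.0190), and 0.04 in S513A (adjusted p = 0.870). Put as the share of the 4 hr log2 change that was left at 8 hr, Rel kept 43.1% in WT and 48.3% in S513A, Nfkb1 50.2% and 65.0%, and Nfkb2 67.0% and 83.4%. Relb kept 76.4% and 80.4%, and Rela 69.1% and 102.8%. These shares are descriptions, and the places of Nfkb2, Rela and Relb in their order differed between the genotypes.

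To compare levels between the genes, CPM were divided by the length in kb of all exons of a gene joined. At 0 hr Rela was the most abundant of the 5, at 22.3 CPM per kb ± 1.49 (SD, n = 4 libraries of both genotypes), followed by Nfkb2 at 15.1 ± 1.30, Relb at 9.12 ± 1.12, Nfkb1 at 7.16 ± 0.49 and Rel at 2.18 ± 0.31. No neighbours in this order overlapped between libraries. At 4 hr Nfkb2 led at 133.7 CPM per kb ± 18.8, followed by Rela at 56.2 ± 5.57, Nfkb1 at 49.2 ± 6.44, Relb at 26.6 ± 1.76 and Rel at 10.1 ± 1.24. The ranges of Rela and Nfkb1 overlapped at that time, from 50.7 to 63.0 and from 43.3 to 57.3. At 8 hr Nfkb2 still led at 78.0 CPM per kb ± 13.7, with Rela at 49.8 ± 9.58, Nfkb1 at 21.7 ± 3.22, Relb at 21.1 ± 1.11 and Rel at 4.37 ± 0.38. Here Nfkb1 and Relb overlapped.

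The summed level of the 5 genes thus went from 55.9 CPM per kb at 0 hr to 275.8 at 4 hr and 174.9 at 8 hr, and its make-up changed. Rela made up 40.0% of the sum at 0 hr (39.6 to 40.1% over the 4 libraries), 20.4% at 4 hr (19.7 to 21.6%) and 28.4% at 8 hr (27.2 to 29.6%). Nfkb2 made up 27.0% at 0 hr (24.8 to 28.8%), 48.4% at 4 hr (46.6 to 50.0%) and 44.5% at 8 hr (43.5 to 45.9%). The share of Rela went down and that of Nfkb2 went up while both genes rose. Nfkb1 made up 12.8%, 17.8% and 12.4%, Rel 3.92%, 3.67% and 2.52%, and Relb 16.3%, 9.73% and 12.2%.

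The place of Nfkb1 and the size of the shares depend on the length used. Its joined exons span 12061 bases over 10 annotated transcripts, whereas its longest coding transcript has 4117 bases. With the longest coding transcript of each gene, Nfkb1 was second at each time, at 21.0, 144.1 and 63.7 CPM per kb, and its share of the summed means at 0 hr was 25.4% in place of 12.8%. At 4 hr its share was 34.0% in place of 17.8%, and that of Nfkb2 was 37.6% in place of 48.5%. The sum was then 82.4, 423.9 and 254.4 CPM per kb at 0, 4 and 8 hr, and 127.3, 640.4 and 382.8 with the coding sequence. With that length or with the coding sequence, Rela still led at 0 hr, Nfkb2 at 4 and 8 hr, and Rel was last throughout. At 4 hr the coding sequence gave Nfkb2 35.5% and Nfkb1 31.8% of the summed means. With either length, the libraries of Nfkb2 and Nfkb1 overlapped at 4 hr. Their ranges were 135.8 to 188.3 and 126.9 to 168.0 CPM per kb with the longest coding transcript. At 8 hr Nfkb2 and Rela overlapped with the coding sequence. For Nfkb2, the last 299 bases of the annotated gene overlap Psd on the opposite strand, which had 4.52 to 70.1 CPM. A further 531 exon bases at its start are shared with AC114539.1, also on the opposite strand, which was not among the listed genes. With unstranded reads the genes cannot be told apart there.

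**Figure D3:**
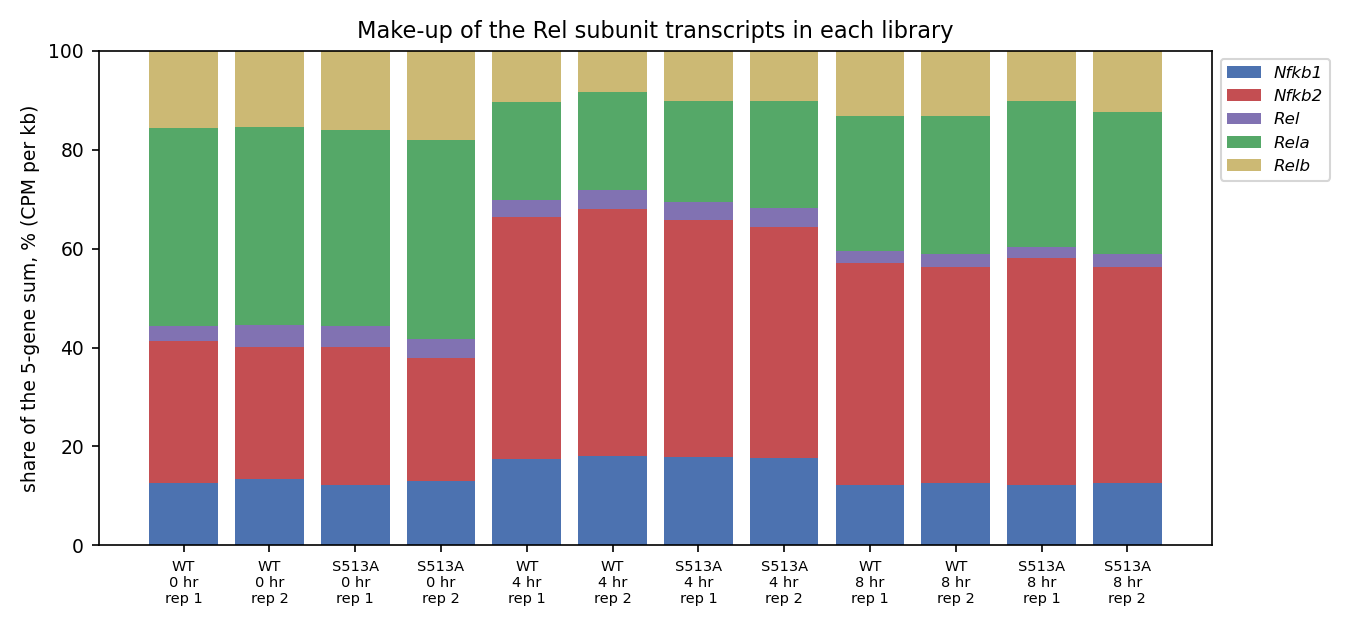
Share of each Rel subunit gene in the sum of the 5 genes, in percent of CPM per kb (vertical axis), for each of the 12 libraries (horizontal axis, by hr of LPS, genotype and replicate). Rela takes 39.6 to 40.1% at 0 hr, and Nfkb2 takes 46.6 to 50.0% at 4 hr.

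Ratios between the genes within a library do not depend on a single scaling factor for each library, but quantile normalization can change them. Of the 10 pairs, 9 had 4 hr ratios outside the range of the 0 hr libraries, 7 had 8 hr ratios outside that range, and 8 had 8 hr ratios outside the range at 4 hr. The pairs come from the same 5 genes and are not independent. The share over pairs of all genes was not computed, so these counts are descriptions. Reads of Nfkb1, the source of p50, were 1.21 to 1.32 times those of Rela at 0 hr, 3.22 to 3.58 times at 4 hr and 1.62 to 1.79 times at 8 hr. Reads of Nfkb2, the source of p52, were 1.62 to 2.17 times those of its partner Relb at 0 hr, 5.42 to 7.13 times at 4 hr and 3.90 to 5.34 times at 8 hr. Nfkb1 was thus highest against Rela, and Nfkb2 against Relb, at 4 hr. Against Rel this did not hold. Reads of Nfkb1 were 7.39 to 8.10 times those of Rel at 4 hr and 7.54 to 9.25 times at 8 hr. Reads of Nfkb2 were 7.39 to 8.57 times those of Rel at 4 hr and 9.84 to 13.2 times at 8 hr. The ratio of Rel to Rela was 0.177 to 0.274 at 0 hr, 0.425 to 0.457 at 4 hr and 0.176 to 0.237 at 8 hr. Its 8 hr values overlapped those at 0 hr only through WT replicate 1 at 0 hr, at 0.177. The remaining 0 hr libraries stood at 0.241 to 0.274. For Rel over Relb, the 8 hr ratios were 0.378 to 0.412. They too overlapped the 0 hr range only through this library, at 0.359, beside 0.423 to 0.566 in the rest. Neither pair is among the 7 above. Rela over Relb was the pair whose ranges overlapped at all times, with 1.76 to 2.06, 1.51 to 1.91 and 1.64 to 2.30. Genes differ in length, so only the change of a ratio, and not its size, can be read.

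Whether the knock-in altered these transcripts was asked by comparing S513A with WT at each time. No subunit gene was called at 0, 4 or 8 hr or in the mean of the 3 times (limma, 0 of 5 each), where 0.0337%, 0.0168%, 0.0337% and 0.0673% of all genes were called. At 8 hr 3 of the 5 genes had an unadjusted p under 0.05, and none had at 0 or 4 hr or in the mean, beside shares of all genes of 12.5% (8 hr), 7.98% (0 hr), 7.01% (4 hr) and 6.71% (mean). The log2 differences lay between -0.06 and 0.19 at 0 hr and between -0.17 and 0.03 at 4 hr. With 2 libraries a group, their 95% confidence intervals reached from -0.40 to 0.57 at 0 hr and from -0.51 to 0.31 at 4 hr. Differences inside the interval of a gene were not excluded. Zc3h12a itself, whose transcript carries the mutation but is not removed by it and so does not check the labels, differed by -0.25, -0.08 and 0.21 (adjusted p from 0.429 to 0.761), and rose 2.80 on the log2 scale at 4 hr.

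At 8 hr the S513A libraries were above the WT libraries for 5 of 5 genes, as they were for 27.9% of all genes tested. The 5 genes are not independent of each other, since they were measured in the same 4 libraries. At 0 hr and at 4 hr the genotypes overlapped for all 5 genes in the deposited values, where 57.5% and 28.2% of all genes did not overlap. Under scaling to the sum of the listed genes, Nfkb2 was lower in S513A without overlap at 0 hr, as were 41.6% of all genes. The difference at 8 hr was 0.43 for Rela (95% confidence interval 0.12 to 0.74, unadjusted p = 0.0107, adjusted p = 0.395), 0.37 for Nfkb2 (0.03 to 0.71, adjusted p = 0.395) and 0.34 for Nfkb1 (0.02 to 0.66, adjusted p = 0.395). It was 0.19 for Rel (-0.18 to 0.56) and 0.12 for Relb (-0.17 to 0.40). With a library left out in turn, the difference of Rela ranged from 0.30 to 0.56, that of Nfkb2 from 0.23 to 0.51 and that of Nfkb1 from 0.25 to 0.43. Rela, Nfkb2 and Nfkb1 are also the genes with most of their variance on the pattern by which libraries of a group differed, and its part in these differences was not tested. At 8 hr the summed macrophage markers were 16754 to 22443 CPM in S513A against 23743 to 24790 CPM in WT, the neutrophil markers 362 to 439 against 514 to 575 CPM, the resident macrophage markers 23.6 to 28.3 against 40.1 to 48.0 CPM, and the eosinophil markers 3.62 to 3.79 against 4.56 to 4.58 CPM. A sum in CPM follows its most abundant members, which for the neutrophil markers was Mmp8. The 8 macrophage markers had a median log2 difference of -0.15 at 8 hr, not all of them were lower, and 0 were called. Of the 9 marker lists with a listed gene, 6 were lower in S513A without overlap, also those of B cells and mesothelial cells, and 3 overlapped. No gene of the mesothelial list passed the filter. At 0 hr 4 lists were lower without overlap and 1 higher, and at 4 hr 2 were lower and 0 higher. The resident macrophage markers were lower at both of these times. Of all genes tested, 27.1% were lower in S513A without overlap at 0 hr, 13.9% at 4 hr and 25.8% at 8 hr. The part of these lists in the differences between the genotypes was not tested.

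The genotype by LPS interaction, the difference between the genotypes in the change from 0 hr, was called for 0 of 5 genes at 4 hr and 0 of 5 at 8 hr (limma), and for 0% of all genes at either time. No subunit gene had an unadjusted p under 0.05 at either time, while 144 of all genes had at 4 hr and 2405 at 8 hr. At 8 hr it was 0.43 for Nfkb2 (-0.05 to 0.91, adjusted p = 0.277), 0.42 for Rela (-0.01 to 0.85, adjusted p = 0.252) and 0.37 for Nfkb1 (-0.09 to 0.82, adjusted p = 0.307). It was -0.004 for Rel (-0.53 to 0.52) and -0.04 for Relb (-0.44 to 0.37).

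**Figure D4:**
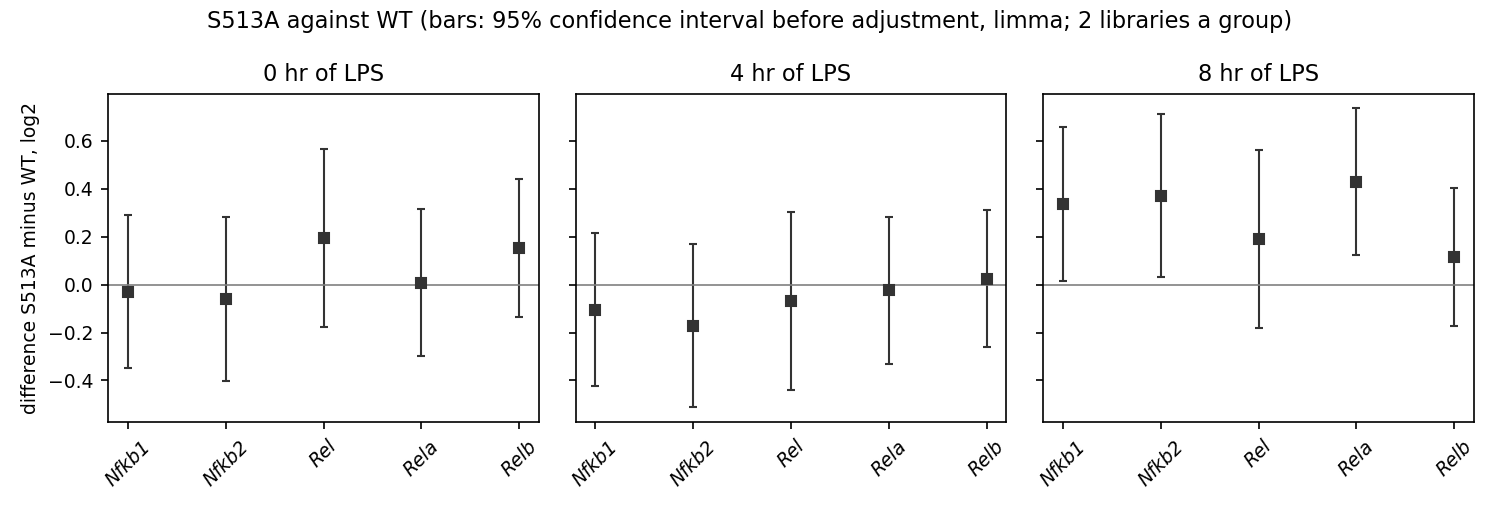
Difference S513A minus WT of each Rel subunit gene in log2 (vertical axis) at 0, 4 and 8 hr of LPS, with 95% confidence intervals before adjustment from limma and 2 libraries in each group. At 8 hr the intervals of Nfkb1, Nfkb2 and Rela lie above 0 before adjustment, and no difference passes the threshold after it.

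The genes that most resembled each subunit gene were found by Pearson's r of log2 CPM over the 12 libraries, all of which share the LPS time course, and is given as a description. Nfkb1 was most like Ptpn12 (r = 0.9981), followed by Rab11fip1, Mtf2, Dusp16 and Fnbp1l, and 420 genes had r over 0.95. Nfkb2 was most like Gas7 (r = 0.9986), followed by Nlrp3, the sensor of an inflammasome, then Slc16a10, Eif4g2 and Dcbld2, with 598 genes over 0.95. Rel was most like Calcrl (r = 0.9939), followed by Appl1, Peli1, Adgrg6 and Ifi207, with 212 genes over 0.95. Rela was most like Igsf8 (r = 0.9946), followed by St3gal1, Rapgef1, Prdm1 and Ampd3, with 463. Relb was most like Pde4b (r = 0.9948), followed by Tnfsf9, Traf1, Tnf and Icam1, with 581. Among themselves the subunit genes correlated with r between 0.876, for Rel and Rela, and 0.986, for Nfkb2 and Relb.

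Of 67 genes that act around the subunits, 65 were tested, and 37 rose and 7 fell at 4 hr, 44 of 65 called beside the 55.8% of all genes. At 8 hr 35 were higher and 7 lower than at 0 hr, beside 46.1% of all genes called and 24.5% called higher, and from 4 to 8 hr 4 rose and 19 fell, beside 25.6% called and 12.8% called lower. All 6 IκB genes rose at 4 hr under each scaling, with log2 fold changes from 0.64 for Nfkbid to 4.34 for Nfkbiz, which encodes a nuclear IκB protein, and 2.84 for Nfkbia, which encodes the classical inhibitor IκBα. Their median was 2.30, beside 2.22 for the subunit genes. Of 11 genes of kinases and their partners 8 rose and 1 fell, from 1.57 for Ikbke, an IKK-related kinase, to -0.34 for Tab1, an adaptor of the kinase TAK1. The call of Tab1 was lost under quantile normalization. Of 8 receptor and adaptor genes of the alternative pathway 6 rose and 1 fell, with 5.44 for the receptor Cd40 and -0.67 for Tnfrsf11a, the RANK receptor.

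Of 12 genes of TLR4 signalling 8 rose and 2 fell, with 3.75 for the co-receptor Cd14 and -0.38 for the kinase Irak4. The rise of Traf6 in this list turned to a lower value under scaling to the sum of the listed genes. Of 10 negative regulators 5 rose and 1 fell, with 2.49 for Tnip1, a partner of the deubiquitinase A20, and -0.32 for the deubiquitinase Otud7b. Of 7 ubiquitin ligase genes 2 rose, led by Fbxw11, a βTRCP protein, at 0.67, and of 7 coactivators and modifiers 1 rose, the deacetylase Hdac1 at 0.77, neither above the 29.1% of all genes called higher. Of 4 genes of the NFAT family, which shares the Rel homology fold, Nfat5 rose by 0.81 and 2 fell, Nfatc2 by the most at -2.74. None of the 65 genes was called between the genotypes or for the interaction. Under scaling to the sum of the listed genes, the counts at 4 hr were 32 higher and 15 lower.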

How the data were processed

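PolyA RNA of 12 PEC libraries was prepared with a NEBNext Ultra kit and sequenced on an Illumina instrument. The authors mapped paired reads to mm10 with HISAT2 as unstranded and counted them with featureCounts 1.6.3, per the labels and the study's methods. They deposited normalized log2 CPM; the program, the annotation and the filter behind the gene list are not given in the sources used here. From the reads plus 0.5 and an effective library size that these values imply, whole reads were recovered for every gene (largest departure 0.00156 read, tolerance 0.01). At this depth 3 reads, the floor, lie at a log2 CPM of -2.04 to -1.30, which covers counting error only.

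Differences were tested on these values with limma 3.58.1 (R 4.3.3): a mean per group, 6 residual degrees of freedom, a prior that follows the mean, two-sided, Benjamini-Hochberg over the 11885 genes that reached 1 CPM in 2 or more libraries, threshold 0.05. The model was run on simulated data in which a small part of the genes changed, at 4 hr only. The simulated libraries varied independently and only the 4 hr comparison was looked at. So the simulation does not cover the genotype and interaction tests or a pattern shared between libraries. No count model was run on the recovered reads. Alternatives were other filters, a further 1 CPM, quantile and median-ratio scaling, replicate blocks, other priors, only the libraries compared, a factor from the differences between replicates, each library left out and other gene lengths. Scaling to the sum of the listed genes was added after seeing the data. Gene lengths came from the GENCODE annotation of GRCm38 and promoters from RefSeq, GRCm38.p6. The genes, gene lists and markers were chosen with earlier results of these data known. Named were the 5 genes, Zc3h12a, the 5 genes most correlated with each, and in each list the called genes with the largest rise and fall at 4 hr; Nfkbia, Nfkbid, Traf6, Psd, AC114539.1 and 3 neutrophil markers were named after their values were seen. Python 3.11.15, pandas 2.3.3 and matplotlib 3.10.9 served for tables and plots.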

Additional observations from a re-analysis of the deposited data

Results flagged for a closer look

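Among the 15 sets of 4 libraries of both genotypes at a time point, 1 for each subunit gene and time, 1 held a library far from the others. For Rel at 0 hr, WT replicate 1 stood at 3.68 log2 CPM, and its gap to the next library was 0.878 of the range of the set. Chance gives such a library in about 1 of 20 sets. Without it, the difference between S513A and WT for Rel at 0 hr was -0.03, against 0.19 with it.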

How the results depend on the processing

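The calls of the 5 subunit genes at 4 and 8 hr against 0 hr held under all alternatives. Of 540 values of LPS comparisons with all libraries kept, 528 kept their direction and side of the threshold, 8 lost the call and 4 gained it. With a library left out, 523 of 540 did, 14 lost the call, 1 gained it and 2 changed sign. Of 45 levels per kb under other lengths or median-ratio scaling, 26 moved by more than the spread between libraries, all of them with another length. With the factor as a term, 5 subunit genes were called from 4 to 8 hr in WT, 3 for S513A against WT at 8 hr and 3 for the interaction at 8 hr, against 3, 0 and 0. This factor was estimated from the replicate differences it removes and sums to 0 in each group, so it leaves the fold changes as they were and makes the p-values too small by construction. Scaling to the sum of the listed genes moved the median of all genes by -0.25 at 4 hr and -0.17 at 8 hr, and the share of rises among the called genes from 52.2% to 30.9%, from 53.2% to 35.0% and, from 4 to 8 hr, from 50.0% to 66.6%.

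The replicate numbers showed no steady pairing of the libraries (r of their deviations from -0.749 to 0.760 over 15 pairs of groups, over 0.1 in 6). Within a genotype r ran from -0.358 to 0.760 over 6 pairs, over 0.1 in 2. These values cannot show whether libraries with the same number came from the same mouse. A replicate block lost the fall of Nfkb2 from 4 to 8 hr in S513A (adjusted p = 0.0563) and changed no other call of the 5 genes.

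Values near 0 changed sign, and the cause was not tested. For Rel, the interaction at 8 hr was 0.00306 with a further 1 CPM, 0.0492 under quantile normalization, 0.0303 under median-ratio scaling and 0.159 under scaling to the sum. For Rela, S513A against WT at 0 hr was -0.0397, -0.0193 and -0.100 under the last 3 of these. Scaling to the sum gave -0.0409 for Relb at 4 hr, and interactions of 0.0105 for Rela at 4 hr and 0.125 for Relb at 8 hr.

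With a library left out, S513A against WT at 0 hr ranged from -0.146 to 0.0861 for Nfkb1, -0.202 to 0.0806 for Nfkb2, -0.0349 to 0.423 for Rel, -0.0787 to 0.0931 for Rela and -0.000541 to 0.306 for Relb. At 4 hr it ranged from -0.283 to 0.0732 for Nfkb1, -0.267 to 0.129 for Rel, -0.180 to 0.133 for Rela and -0.0879 to 0.138 for Relb, and in the mean of the times from -0.00913 to 0.101 for Nfkb2. The interaction at 4 hr ranged from -0.253 to 0.103 for Nfkb1, -0.277 to 0.0544 for Nfkb2, -0.188 to 0.126 for Rela and -0.281 to 0.0257 for Relb, and at 8 hr from -0.233 to 0.225 for Rel and -0.191 to 0.116 for Relb. Rela from 4 to 8 hr in S513A ranged from -0.0918 to 0.165.

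Counts over all genes moved more. S513A against WT at 0, 4 and 8 hr gave 693, 0 and 1 called genes with only the libraries compared, against 4, 2 and 4, and 1790, 1495 and 2472 with the factor as a term. The mean of the times gave 341 with the factor, against 8. Other alternatives gave 0 to 12 in these comparisons. The interaction at 8 hr, 0 as reported, reached 3558 with the factor and 651 with a library left out. From 4 to 8 hr, 656 genes in WT and 596 in S513A were called with only the libraries compared, 4377 and 5184 with the factor, and 554 to 2847 and 665 to 3144 with a library left out. At 8 against 0 hr the last gave 2489 to 4824 in WT and 2994 to 5425 in S513A, and the factor 6334 in WT. Averaged over the genotypes, 4 to 8 hr gave 5237 with the factor and 2021 to 3403 with a library left out, against 3043.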
